A study of Mus musculus with 7 samples.

Results

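Pax3, Sgpp2, Farsb and Mogat1 are 4 neighbouring genes of mouse chromosome 1 that follow Epha4 in gene order. Their rows were taken by symbol from the 5 deposited tables that give every gene 1 scaled value for the contact of its start site with an enhancer region. They are 4 of 103 genes in each table, and all 4 were found in every table. The tables belong to 1 capture Hi-C library each: wild-type (WT) limb buds and limb buds with the CRISPR/Cas9 inversions Inv1, Inv2, Inv3 and Inv4. The study also holds maps, without gene tables, of limb buds with Inv1 and a deletion labelled DelCTCF, and of Inv1 embryonic stem cells (ESCs), which are pluripotent cells in culture. Fore- and hindlimb buds, titled Distal, came from embryos at stage E11.5, with 10 embryos pooled per condition. The genotype field reads WT or mutant only, the cell type field names G4 ESC for every library, and the labels do not state whether Inv2, Inv3 or Inv4 embryos also carried a WT chromosome. Contact data hold no expression, so the labelled tissue could not be checked against marker genes.

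Capture Hi-C cuts fixed chromatin with DpnII, joins fragment ends that lie close together, enriches a chosen region and counts the joined pairs. Contacts concentrate within domains separated by borders, and an enhancer usually acts on promoters within its own domain. Epha4 encodes an ephrin receptor of limb mesenchyme and nervous system, and its limb enhancers lie in its own domain. Pax3 encodes a paired-box transcription factor of the dorsal neural tube, the neural crest and the muscle progenitors that migrate into the limb. Pax3 is known for this locus because deletions that remove the border beside Epha4 bring it under the limb enhancers of Epha4 and shorten the digits. Sgpp2 encodes a phosphatase of sphingosine-1-phosphate, Farsb the beta subunit of the cytosolic phenylalanyl-tRNA synthetase and Mogat1 an acyltransferase that makes diacylglycerol from monoacylglycerol. The question put to these genes is how far promoters that no inversion moved still met the enhancer region.

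The sequences at the start sites are shown because each table row stands for 1 such site. RefSeq promoters of GRCm38.p6, covering 250 bases before to 50 bases after the start, were matched for 3 of the 4 genes. Pax3 is named only. The build differs from the mm9 build of the maps, so these positions were not used to place the genes on the maps. CG dinucleotides are in capitals:
Sgpp2: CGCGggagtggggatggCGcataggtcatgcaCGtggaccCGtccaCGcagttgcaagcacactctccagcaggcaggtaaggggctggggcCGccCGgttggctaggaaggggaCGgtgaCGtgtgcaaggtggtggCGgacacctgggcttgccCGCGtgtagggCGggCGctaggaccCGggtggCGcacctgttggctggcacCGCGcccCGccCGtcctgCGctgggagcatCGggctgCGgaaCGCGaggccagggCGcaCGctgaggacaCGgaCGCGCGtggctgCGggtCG
Farsb: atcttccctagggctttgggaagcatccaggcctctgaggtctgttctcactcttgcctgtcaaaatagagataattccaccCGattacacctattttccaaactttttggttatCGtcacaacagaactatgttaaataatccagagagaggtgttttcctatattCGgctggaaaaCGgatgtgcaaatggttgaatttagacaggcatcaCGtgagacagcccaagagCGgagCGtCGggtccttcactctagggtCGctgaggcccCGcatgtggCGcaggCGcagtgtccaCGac
Mogat1: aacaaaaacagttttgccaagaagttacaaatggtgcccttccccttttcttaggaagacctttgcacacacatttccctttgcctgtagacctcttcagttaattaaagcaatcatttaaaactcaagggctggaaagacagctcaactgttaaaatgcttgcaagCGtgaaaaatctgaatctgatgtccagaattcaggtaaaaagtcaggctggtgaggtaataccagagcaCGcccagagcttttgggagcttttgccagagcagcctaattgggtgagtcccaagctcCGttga
The Sgpp2 window is chr1:78310096-78310395 on the plus strand, that of Farsb chr1:78488848-78489147 on the minus strand and that of Mogat1 chr1:78510810-78511109 on the plus strand. Sgpp2 held 34 CG, a number reached by 7.73% of the 32851 promoters of this length, against a median of 7. Farsb held 13 CG, reached by 37.9% of promoters. Mogat1 held 3 CG, reached by 76.7%. The G and C content was 72.0%, 49.3% and 43.7%. The letters GATC, the DpnII cut site and its own reverse complement, were found in none of the 3 windows, whereas 48.0% of all promoters of this length hold them at least once.

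The contact values have no unit stated in the sources used here, and their scale may differ from table to table. Each condition was 1 library, so there was no replicate error and no test between conditions. As a scale for noise, the difference to WT was taken over 25 genes at both ends of the tables (14 centromeric and 11 telomeric, 23 with distinct values). These are called far genes below. Its SD over the far genes was 0.336 (Inv1), 0.459 (Inv2), 0.651 (Inv3) and 0.564 (Inv4). The far genes had low contact, with a median of 0.161 in WT. Their SD therefore does not measure the noise at a gene with higher contact, such as Pax3. The WT and Inv1 tables hold no negative value, but those of Inv2, Inv3 and Inv4 list 25, 13 and 12 genes below 0. The matching maps are libraries from which a share of WT signal had been taken away, and 5 of the 20 values of the 4 genes are negative. Recovered depth was 5155249 read pairs for the WT map and 3903521 for Inv1. Outside the inversions it was 3745566 for Inv2, 3324723 for Inv3 and 3141322 for Inv4 once the WT share was added back, against 4305924 for WT in the same area.

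In WT limb buds Pax3 had the highest contact of the 4 genes, at 1.98 scaled units. Farsb was at 0.853, Sgpp2 at 0.667 and Mogat1 at 0.304. Pax3 ranked 9 from the top among the 88 distinct rows of the table, Farsb 21, Sgpp2 31 and Mogat1 55. None of the 23 distinct far genes reached Pax3, Farsb or Sgpp2, and the highest far gene was at 0.574. Mogat1 was within the far-gene range, with 6 far genes at or above it. Epha4 itself was at 7.68, so Pax3 had 25.8% of its value, Farsb 11.1%, Sgpp2 8.68% and Mogat1 3.96%. The spread between libraries is unknown, so the order of Farsb and Sgpp2 describes this library only.

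**Figure D1:**
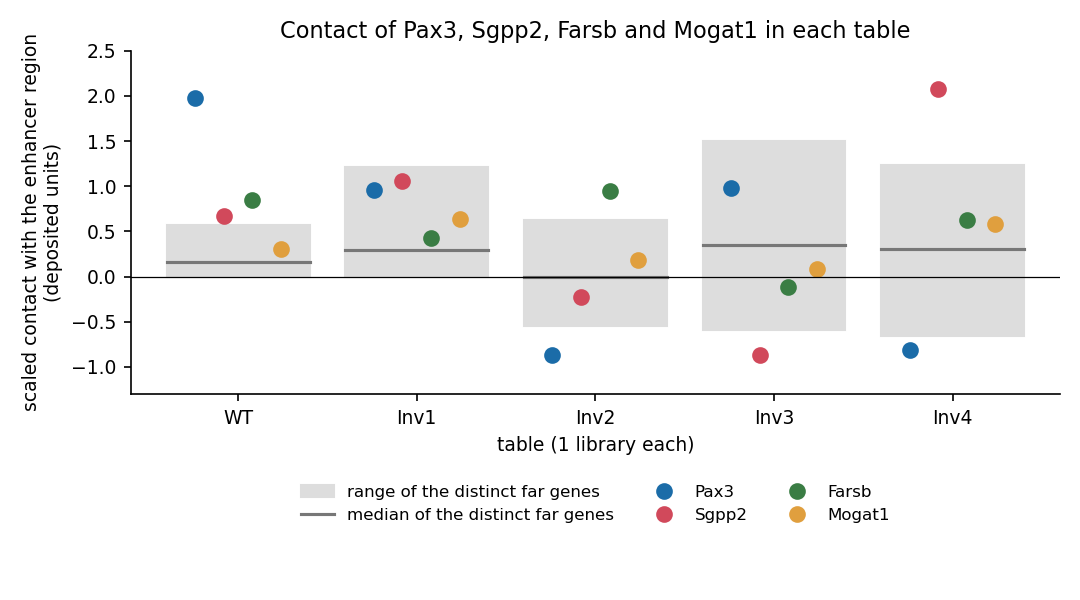
Scaled contact with the enhancer region in the deposited units (vertical axis) of Pax3, Sgpp2, Farsb and Mogat1 (points) in the 5 tables, 1 library each. Grey boxes span the distinct far genes and the line is their median. Pax3 lies above the box in WT, at 1.98, inside it in Inv1 and Inv3, and below it in Inv2 and Inv4, while Sgpp2 lies below it in Inv3 and above it in Inv4, at 2.07.

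Pax3 was below its WT level in all 4 inversions. Against 1.98 in WT, the Inv1 table lists Pax3 at 0.963, Inv2 at -0.870, Inv3 at 0.984 and Inv4 at -0.808. The Inv1 and Inv3 values lie close to each other and amount to 48.7% and 49.8% of WT. The other 2 are the lowest of all 88 distinct rows in their tables. Where WT signal was taken away, a gene with more WT signal can be listed further below 0. As a multiple of WT, 6 genes of Inv2 lay near -0.99, lower than Pax3. Pax3 itself was at -44.0% of WT in Inv2 and -40.8% in Inv4. In units of the far-gene SD, the distance from WT was 3.02 for Inv1, 6.20 for Inv2, 1.53 for Inv3 and 4.94 for Inv4. No far gene differed from WT by as much as Pax3 in Inv1, Inv2 or Inv4, and 4 of 23 did in Inv3. The highest far gene in WT was at 0.574, so without negative values none could fall in Inv1 by as much as Pax3, which fell by 1.01. In Inv2 no negative value lay lower than -0.994 times WT, so the low WT values of the far genes limited their fall there too. On the log2 scale, with 0.5 added to every value and negative values set to 0, Inv1 had a ratio to WT of -0.76, Inv2 of -2.31, Inv3 of -0.74 and Inv4 of -2.31. The equal ratios of Inv2 and Inv4 come from this floor at 0 and give no order between them. Within Inv1, where Epha4 was at 0.487, Pax3 was the higher of the pair, at 198% of Epha4. Both lay within the far-gene range of Inv1, with 2 far genes at or above Pax3 and 4 at or above Epha4. In Inv3 Pax3 was at 49.3% of Epha4, compared with 25.8% in WT.

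Sgpp2 lay above WT in Inv1 and Inv4 and below it in Inv2 and Inv3. From 0.667 in the WT table, it stood at 1.06 with Inv1, -0.230 with Inv2, -0.871 with Inv3 and 2.07 with Inv4. The Inv4 value is above every far gene of that table, and the Inv3 value is below every far gene of its own. Differences to WT were 0.40 (Inv1), -0.90 (Inv2), -1.54 (Inv3) and 1.41 (Inv4), or 1.18, 1.95, 2.36 and 2.49 far-gene SDs. No far gene differed as much in Inv3 or Inv4. Log2 ratios were 0.42, -1.22, -1.22 and 1.14, and the -1.22 values are again set by the floor at 0. The Inv4 ratio depends on the genes used to centre that table. There the log2 ratios of all 103 genes had a median of 1.08, and those of the far genes 0.10. After centring on the median gene the ratio of Sgpp2 in Inv4 was 0.06, and after centring on the far genes it was 1.04. Its rank in Inv4 was 39 of 88, against 31 of 88 in WT.

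Farsb had 0.853 in WT limb buds, then 0.426 with Inv1, 0.950 with Inv2, -0.112 with Inv3 and 0.629 with Inv4. It was the highest of the 4 genes in Inv2, above every far gene of that table, while Pax3 and Sgpp2 were negative there. The difference to WT was 0.21 far-gene SDs in Inv2 and 0.40 in Inv4, and 19 and 17 of 23 far genes differed by at least as much. In Inv1 and Inv3 it was 1.27 and 1.48 SDs, with 4 of 23 far genes at least as far from WT in both. The log2 ratio was -0.55, 0.10, -1.44 and -0.26 in Inv1 to Inv4.

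Mogat1 had low values in all 5 tables, with 0.304 for WT, 0.643 for Inv1, 0.184 for Inv2, 0.0868 for Inv3 and 0.579 for Inv4. Its difference to WT was 1.01 far-gene SDs in Inv1 and 0.26 to 0.49 in the others, and at least 8 of 23 far genes differed by as much in each inversion. The Inv1 value is 211% of WT without a pseudocount, but the log2 ratio with it was 0.51. Elsewhere the ratio was -0.23 (Inv2), -0.45 (Inv3) and 0.42 (Inv4). At this level the differences of Mogat1 to WT were not distinguishable from those of the far genes.

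The 4 genes were counted together on the log2 scale, with the pseudocount of 0.5. In Inv1, 0 of the 4 were at least 2-fold above or below WT, where 35.9% of all genes were above and 3.88% below. In Inv2, 2 were below (Pax3 and Sgpp2) and 0 above, against 16.5% and 19.4% of all genes. In Inv3, 2 were below (Sgpp2 and Farsb) and 0 above, against 10.7% and 45.6%. In Inv4, 1 was below (Pax3) and 1 above (Sgpp2), against 6.8% and 52.4%. Without the pseudocount, Pax3 was at 48.7% and 49.8% of WT in Inv1 and Inv3, and Mogat1 at 211% and 28.6%. These values are beyond 2-fold but were not counted here. The median log2 ratio of the 4 genes was -0.06, -0.73, -0.98 and 0.08 in Inv1 to Inv4. Over all genes it was 0.62, 0.00, 0.81 and 1.08. With 4 genes and no test, the counts describe these genes only and cannot show whether they differ from the rest.

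Since the scale may differ between tables and the median gene shifted, the counts were also taken relative to the median gene. Then 2, 2, 4 and 2 of the 4 genes were at least 2-fold below in Inv1 to Inv4, and 0 were above in any of them. All genes gave 12.6%, 16.5%, 28.2% and 24.3% below and 20.4%, 19.4%, 23.3% and 23.3% above on that scale. Pax3 was then at -1.38, -2.31, -1.55 and -3.39, and so at least 2-fold below in all 4 inversions. Farsb was at -1.17, 0.10, -2.24 and -1.35, Sgpp2 at -0.20, -1.23, -2.03 and 0.06 and Mogat1 at -0.12, -0.24, -1.26 and -0.66. The sign of the ratio was thus the same on both scales for Pax3 and Farsb in every inversion. It turned for Sgpp2 in Inv1 and for Mogat1 in Inv1 and Inv4.

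**Figure D2:**
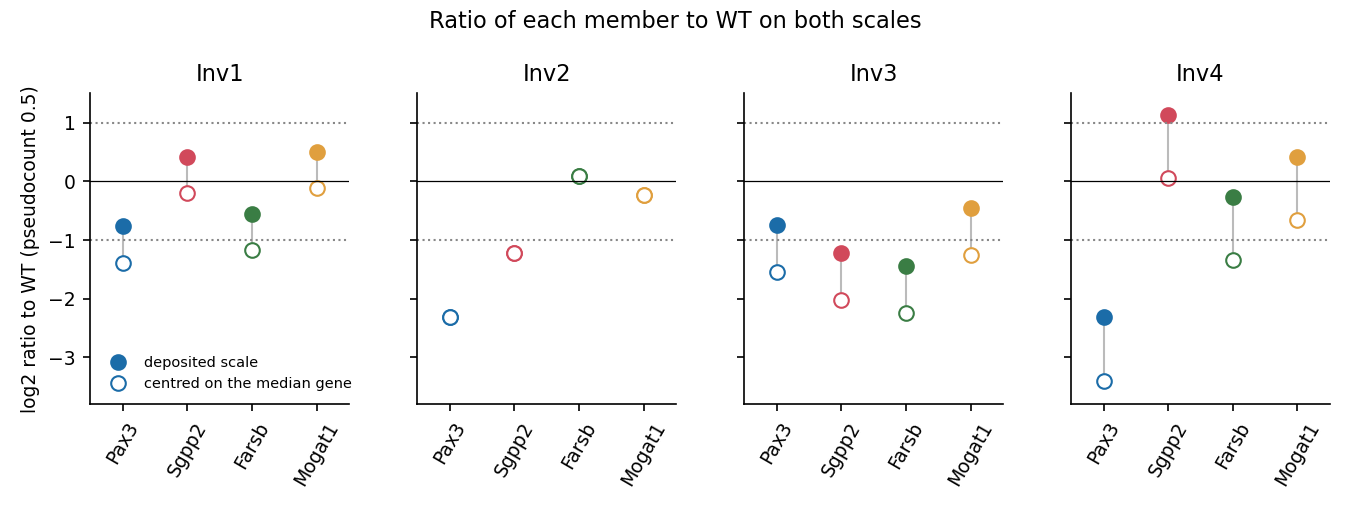
Log2 ratio to WT (vertical axis, pseudocount 0.5) of each gene in the 4 inversions, on the deposited scale (filled points) and centred on the median gene (open points), with dotted lines at a 2-fold change. Pax3 and Farsb keep their sign on both scales, and Pax3 in Inv2 and Inv4 lies at -2.31 or lower, where the value was set to 0.

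Some negative values of the Inv2 table shared 1 multiple of WT. Of its 22 distinct genes with a negative value, 6 (Pecr, Ankar, Rpl37a, Igfbp5, Scg2 and Dock10) lay between -0.994 and -0.992 times their WT value, and 0 lay lower. A library without any contact would leave such a floor once WT signal was taken away. With 0.993 times the WT value added back, the Inv2 table gave 1.10 for Pax3, 0.432 for Sgpp2, 1.80 for Farsb and 0.486 for Mogat1. The WT signal taken away would then be 1.96 for Pax3, 0.662 for Sgpp2, 0.847 for Farsb and 0.302 for Mogat1. The negative deposited values of Pax3 and Sgpp2 thus correspond to added-back contact above 0. The added-back values hold any contact of a WT chromosome that the embryos may have carried. No such floor was found in the Inv3 or Inv4 table. In Inv4, 3 of 12 negative genes shared a multiple but 4 lay below it, so the values of Pax3 and the other genes there were not split.

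**Figure D3:**
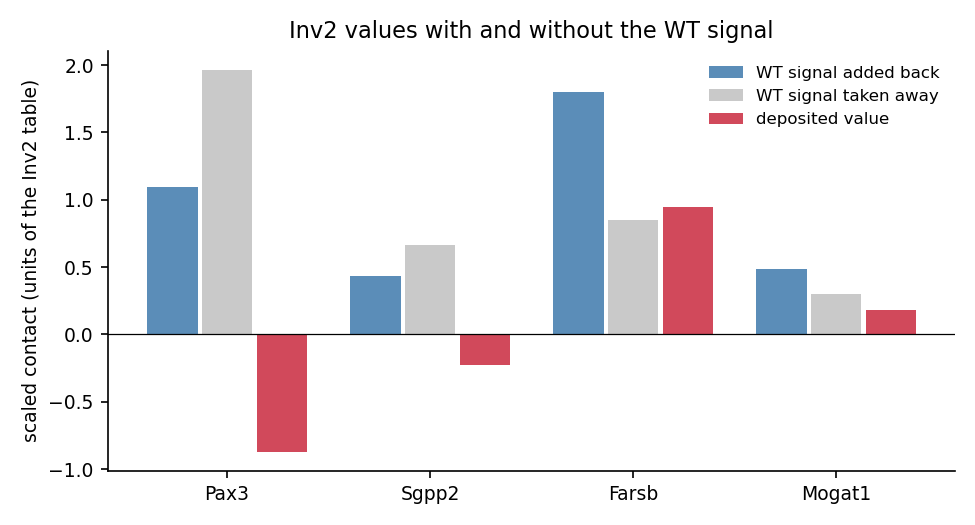
Scaled contact in units of the Inv2 table (vertical axis) for the 4 genes: the value with WT signal added back (blue), the WT signal taken away (grey) and the deposited value (red), which is the blue bar minus the grey bar. Pax3 has a blue bar of 1.10 and a grey bar of 1.96, and Farsb of 1.80 and 0.847.

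Placed in table order from Epha4 outward, the WT values of Epha4, the microRNA gene Mir6352, Pax3, Sgpp2, Farsb and Mogat1 were 7.68, 5.55, 1.98, 0.667, 0.853 and 0.304. The next genes, Utp14b and Acsl3, which share 1 value, were at 0.498, Kcne4 at 0.164 and Scg2 at 0.146. WT contact was thus lower at Pax3 than at Epha4 and Mir6352, and lower again at Sgpp2, with Mogat1 near the genes beyond it. RefSeq places the protein-coding genes in the order Epha4, Pax3, Gm2102, Sgpp2, Farsb, Mogat1, Acsl3 and Utp14b. In Inv1 Epha4 was not the highest of them. Epha4 was at 0.487, Mir6352 at 0.486, Pax3 at 0.963, Sgpp2 at 1.06 and Farsb at 0.426. Mogat1 was at 0.643 and Utp14b with Acsl3 at 1.10. All of these lay within the far-gene range of Inv1, which reached 1.21. In Inv4 the order was 1.25 for Epha4, -0.117 for Mir6352, -0.808 for Pax3, 2.07 for Sgpp2, 0.629 for Farsb, 0.579 for Mogat1 and 1.23 for Utp14b with Acsl3. Pax3 and Sgpp2, next to each other in the tables, differed by 2.88 units there, the widest range of the 4 genes in any of the 5 tables.

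**Figure D4:**
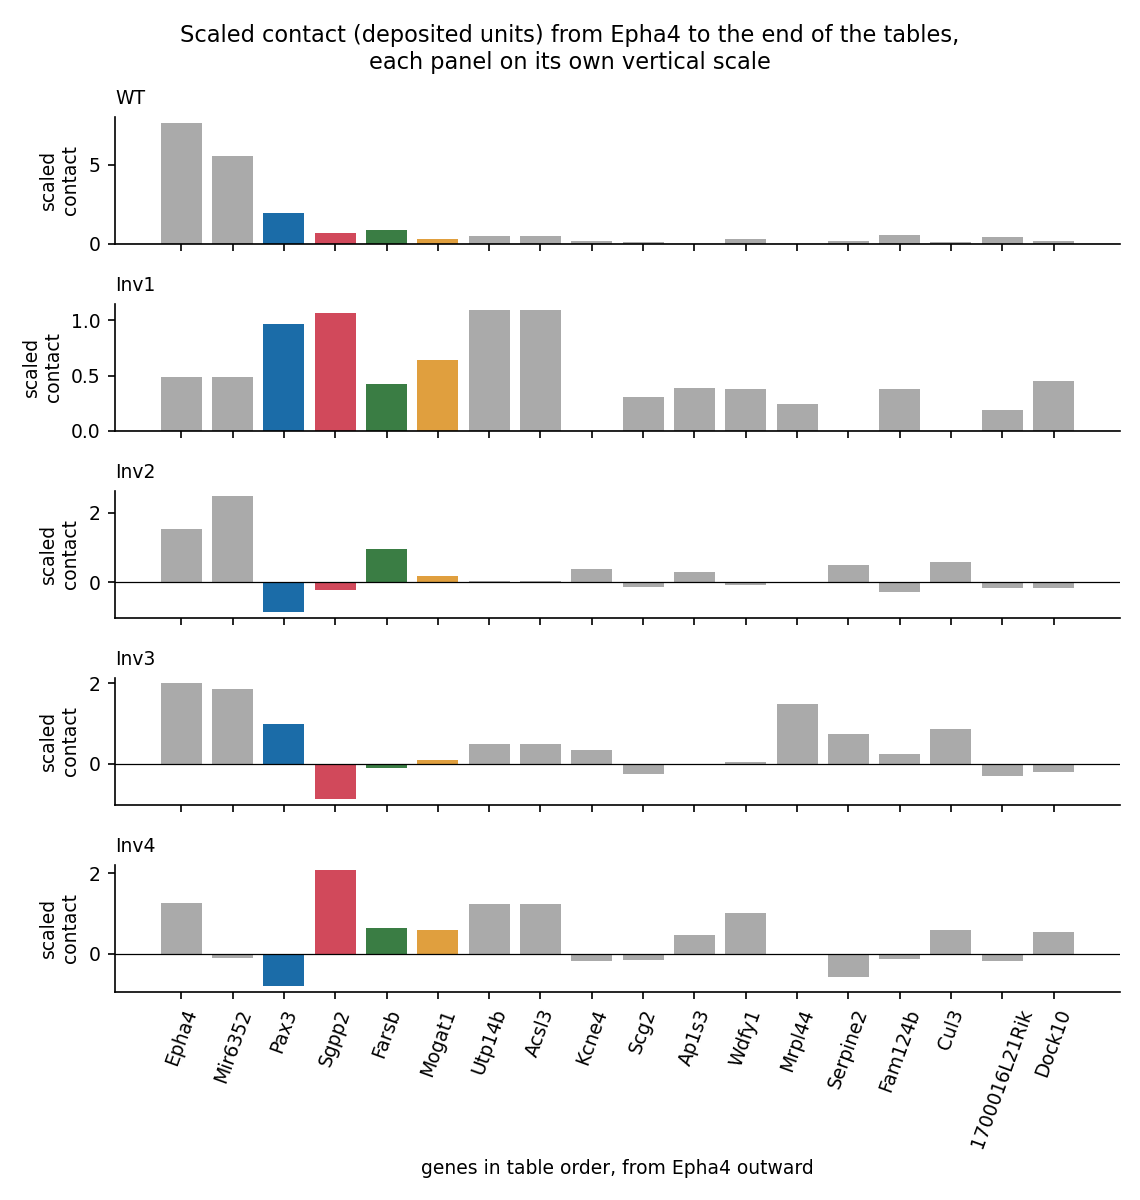
Scaled contact in the deposited units (vertical axes, each panel on its own scale) of the genes from Epha4 to the end of the tables, in table order, for WT and Inv1 to Inv4, with the 4 genes in colour. The WT bars are highest at Epha4, at 7.68, and lower at Pax3, at 1.98, and at Mogat1, at 0.304. The fall is not steady, with Farsb above Sgpp2 and Fam124b, at 0.542, above Mogat1. In Inv1 Pax3, Sgpp2, Mogat1, Utp14b and Acsl3 stand above Epha4, and all of these lie within the range of the far genes.

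Beyond Mogat1, the 11 telomeric genes had a median log2 ratio of 0.32, -0.37, -0.02 and 0.63 in Inv1 to Inv4, beside -0.06, -0.73, -0.98 and 0.08 for the 4 genes. Of the 11, 0, 1, 0 and 1 were at least 2-fold below WT in those inversions (Fam124b both times). The numbers above were 0, 0, 2 (Mrpl44 and Cul3) and 0. The list held 19 genes, of which 8 are not in the tables. The 14 centromeric genes had medians of 0.45, -0.14, 0.37 and 0.07. Among the 4 genes themselves the patterns over the 4 inversions were unlike, with a root mean square difference of log2 ratios from 0.72 between Sgpp2 and Mogat1 to 1.92 between Pax3 and Sgpp2. The genes most like Pax3 were Fam124b, at 0.93, and 1700016L21Rik, at 1.04, both near the end of the tables. Those most like Sgpp2 were Mir1928 (0.32) and Wdfy1 (0.46), and those most like Farsb were Rpl37a (0.56) and Stk11ip (0.57). For Mogat1 they were Dock10 (0.14) and 4933417E11Rik (0.27). These comparisons rest on 4 inversions that share the WT table, and on values set to 0 in several of them.

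The maps were used to see where contacts of the chromosome beyond Epha4 went. The table values could not be tied to map bins, so the 4 genes were not assigned to an interval, and whether the enhancer region lies in the moved part was not determined. In mm9 the WT map had borders at 77.51, 77.94, 78.48 and 78.72 Mb of chromosome 1, which bound 3 intervals of 430, 540 and 240 kb. The domain before them, which ends at 77.51 Mb, is called the Epha4 domain here. Its stretch from 75.62 to 75.88 Mb was moved by every inversion. In WT, 3.60 ± 0.029% of the contacts of interval 1 were with the moved part, 1.18 ± 0.015% of those of interval 2 and 0.561 ± 0.019% of those of interval 3 (± counting SE). These rest on 17249, 6961 and 1248 read pairs. The SEs cover counting error only and are approximate for Inv2 to Inv4.

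With the inversions, interval 1 had 0.828 ± 0.017% (Inv1), 1.08 ± 0.056% (Inv2), 1.29 ± 0.060% (Inv3) and 0.868 ± 0.061% (Inv4) of its contacts with the moved part. The shares of Inv2, Inv3 and Inv4 are 29.9%, 35.8% and 24.1% of WT, and 39.1% is the highest upper bound of the 95% counting intervals of all 4 inversions. The Inv2 to Inv4 values come from maps after WT subtraction, with 28.8% to 31.3% of listed bin pairs negative, and with the WT share added back they were 64.4%, 67.5% and 61.3%. For interval 2 the shares were 48.7%, 54.0%, 57.3% and 52.9% of WT, and for interval 3 they were 64.0%, 79.2%, 58.1% and 60.1%. The moved part lay farther away in the inversions, at a mean of 2305 kb from interval 1 in Inv1 and 2775 kb in Inv4, against 1975 kb in WT. Divided by the mean contact at the same distance in the same map, contact of interval 1 with the moved part was 4.73 in WT and 1.63, 2.57, 3.44 and 1.96 in Inv1 to Inv4. On that scale interval 2 was at 2.56 in WT, at 1.71, 2.42 and 2.80 in Inv1 to Inv3 and below WT in Inv4, and interval 3 at 1.62 in WT and at 1.43, 2.17, 1.79 and 1.40. Interval 3 in Inv2 was thus above WT per distance, at 2.17 ± 0.18 against 1.62 ± 0.055 (± counting SE), though below it as a share. Interval 2 in Inv3, at 2.80 ± 0.14 against 2.56 ± 0.032, and interval 3 in Inv3, at 1.79 ± 0.20, were also listed higher. With these SEs they were not clearly apart from WT. In Inv2 to Inv4 the mean at each distance also comes from the subtracted map. In Inv1 with the DelCTCF deletion the interval 1 share was 1.05 ± 0.019%, and in Inv1 ESCs it was 0.639 ± 0.014%. In these ESCs interval 3 was at 110% of WT limb buds, with a 95% counting interval of 98.8% to 122%. The study holds no WT ESC map. In every comparison of the ESCs with WT, cell type and inversion therefore cannot be told apart. Contact of interval 1 with the unmoved rest of the Epha4 domain was 23.1% in WT. In Inv1 to Inv4 it was 24.1%, 25.1%, 26.0% and 28.1%. With the WT share added back it was 24.1%, 24.6% and 25.6% in Inv2 to Inv4. Contact within interval 1 made up 52.3% in WT and 52.0%, 50.2%, 49.4% and 43.9% in Inv1 to Inv4. In Inv4 the share with that rest was 122% of WT. The shares with interval 2, interval 3 and sequence beyond it were at 120%, 144% and 136%. That with sequence left of every inversion was at 98.7%. Divided by the mean contact at the same distance, contact with that rest was 1.19 in WT. In Inv1 to Inv4 this was 1.22, 1.22, 1.25 and 1.25.

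**Figure D5:**
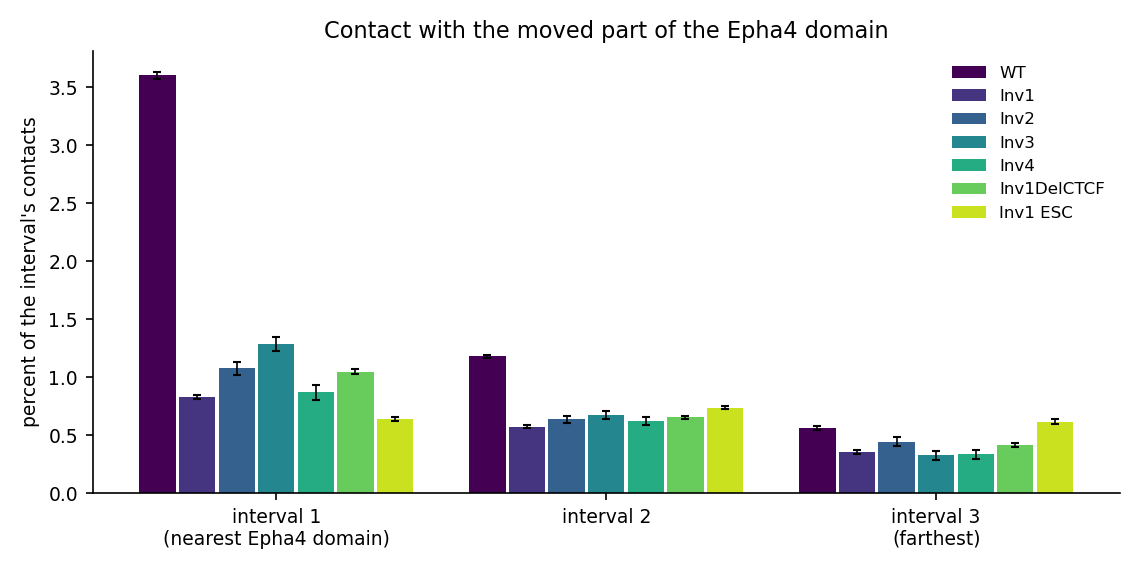
Share of the contacts of each interval (percent, vertical axis) with the moved part of the Epha4 domain in the 7 maps, with counting SEs as error bars. The WT bar of interval 1, at 3.60%, is the highest, and the mutant bars of interval 1 lie between 0.639% and 1.29%.

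The border at 77.51 Mb was found in every map, with the 200 kb square used to measure it. Its depth, the log2 rise in contact on either side, was 1.18 in WT, and 1.07, 0.97, 1.11 and 0.96 in Inv1 to Inv4. Inv1 with DelCTCF had 1.16 and Inv1 ESCs 0.87, where it lay at 77.53 Mb. Differences of that size have to be set against borders elsewhere: of 17 WT borders outside the inversions, 17, 16, 17 and 16 were found in Inv1 to Inv4 and 14 in ESCs. Over those found, the SD of the depth difference to WT was 0.05, 0.13, 0.12 and 0.13 in Inv1 to Inv4 and 0.17 in ESCs, and the median was 0.01, -0.03, 0.02 and -0.09, and -0.15 in ESCs. The differences at 77.51 Mb were -0.11, -0.21, -0.07 and -0.21 in Inv1 to Inv4 and -0.31 in ESCs. The border at 77.94 Mb had a depth of 1.16 in WT, 0.91 to 1.34 in Inv1 to Inv4 and 0.72 in ESCs.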

How the data were processed

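Genome build mm9, Bowtie2 2.2.6 and Juicer are named in the submitters' processing notes, with no roles given. The deposited maps hold balanced signal per pair of 10 kb bins from 71 to 81 Mb, and the authors' Inv2, Inv3 and Inv4 maps had WT signal subtracted with weights of 0.423, 0.369 and 0.334, as their values show. The deposited gene tables hold 1 scaled contact value per gene, and the scaling is not given in the sources used here. Read pairs were recovered by fitting 1 factor per bin (Python 3.11.15, numpy 2.4.6). The fit was tested on a simulated map without WT subtraction. Recovery for Inv2 to Inv4, after the WT share was added back, was not tested by simulation. Log2 ratios used a pseudocount of 0.5 after negative values were set to 0. Borders were local minima of contact in a 200 kb square with a depth of at least 0.2. The 4 genes and the lists were chosen with earlier results of these data known. Named besides them are Epha4, the next 4 telomeric genes and, per member, the 2 genes with the most similar log2 ratios. The subtraction check was added, and its genes and those of the list counts were named, after their values were seen. The alternatives tried were other pseudocounts, centrings, squares and intervals. Placing the genes on map bins was planned only for an exact match of table and map values, which was not found.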

Additional observations from a re-analysis of the deposited data

How the results depend on the processing

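Each condition had 1 library, so no setting could be checked against replicates. No paired analysis was possible because every group holds 1 sample. Of 64 ratios of the 4 genes under other pseudocounts and centrings, 44 stayed within 1 SD of the far genes' log2 ratios and 20 moved by more. That SD was 0.56, 0.65, 0.84 and 0.72 in Inv1 to Inv4. Of the ratios at least 2-fold in the main setting, 0 changed direction. Among the smaller ones, the sign turned under some setting for Sgpp2 in Inv1 and for Mogat1 in Inv1, Inv2 and Inv4. In Inv1 the number of the 4 genes at least 2-fold below WT was 1 (pseudocount 0.05), 2 (median gene) and 1 (far genes). It was 0 in the main setting. Of all 103 genes, 12, 13 and 6 were below under these settings. With pseudocount 5, 0 of the 4 were below in Inv2, Inv3 and Inv4, against 0, 0 and 2 of all genes. Centring on far genes gave 1 of the 4 in Inv2, against 8 of all genes. Centring on the median gene gave 4 in Inv3 and 2 in Inv4, against 29 and 25. In Inv3, pseudocount 0.05 and centring on far genes each gave 3 in place of 2, against 26 and 14. The 1 gene above WT in Inv4, Sgpp2, became 0 with pseudocount 5 and with centring on the median gene. Of all genes, 11 and 24 were above there. Among far genes, the main setting gave 1, 0, 5 and 4 above and 0, 2, 1 and 1 below for Inv1 to Inv4. Pseudocount 0.05 gave 13, 7, 10 and 11 above and 6, 13, 8 and 7 below. The median gene as centre gave 0 above with 4 below for Inv1, 1 with 8 for Inv3 and 0 with 12 for Inv4. Most far values are near 0, where the pseudocount sets the ratio. With WT signal added back, contact of interval 1 with the moved part was 64.4%, 67.5% and 61.3% of WT in Inv2, Inv3 and Inv4, of interval 2 76.7%, 78.4% and 76.0%, and of interval 3 78.8% and 79.7% in Inv3 and Inv4, by construction nearer WT. This setting and the widening of each interval by 1 bin were chosen after seeing the data, and widening left 18 of 18 shares with the moved part within their 95% counting intervals. The depth difference of the 77.51 Mb border in Inv1 was -0.0074 with a 400 kb square, where the ESC border was not found, against -0.11 with 200 kb. In all, 10 of 11 such depth differences stayed within 1 SD over WT borders. Planned settings on the members' own bins and a wider enhancer region were not run, since neither could be placed.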
